A study of Homo sapiens with 6 samples.

Results

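Chemokine genes of the CC and CXC families were followed on arrays of BT474 cells, a breast cancer cell line positive for estrogen receptor and HER2, that had been made to express transcript variants of the long noncoding RNA NR2F1-AS1. The genes, 10 in all, were CCL2, CCL5, CCL20, CXCL1, CXCL2, CXCL3, CXCL5, CXCL6, CXCL8 (IL8) and CXCL16, and every probe under 1 of these names was taken, 13 of the 58201 probes and 10 of the 43317 gene names on the arrays. The genes were picked from earlier results of the same arrays, so their values are described here and no p-value is given for them. All cells carried a pcDNA3.1 plasmid. Control cells had it empty, BT474-Var1 cells had it with variant 1 of NR2F1-AS1, BT474-Var4 cells had it with variant 4, and each group had 2 arrays, named A and B. Per the study, the cells were transfected by nucleofection and selected with antibiotics, and both variant populations shrank to a few cells before colonies grew out. The Var1 and Var4 plasmids had different backbones, and it is not stated which empty backbone the Control cells carried or whether A and B were separate cultures. A p-value below therefore measures only the spread between arrays, which may be technical.

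Chemokines are small secreted proteins that draw cells along a gradient by binding G protein-coupled receptors. CXCL1, CXCL2, CXCL3, CXCL5, CXCL6 and CXCL8 belong to the ELR-positive CXC group, which carries a glutamate-leucine-arginine motif ahead of the CXC cysteines and acts on CXCR1 and CXCR2, mainly on neutrophils. CCL2 draws monocytes through CCR2, CCL5 acts through CCR1 and CCR3, and CCL20 acts through CCR6. CXCL16 is made as a membrane protein, is cut off by ADAM10 and ADAM17, and binds CXCR6. Many of these genes are known targets of NF-kappaB and are induced by TNF and IL1.

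Promoters of 7 of the 10 genes were matched in RefSeq (GRCh38.p14), each as 250 bases before to 50 bases after the annotated start. The 250 bases ahead of the start were searched on both strands for the kappaB-like word GGNNTTTCC, which overlaps the longer NF-kappaB consensus. The word was present in 7 of the 7 promoters, in 2 of the 26 promoters of other chemokine ligands (7.69%) and in 5.48% of 27305 promoters of all genes. The windows around it are shown because they are held in common by genes that differed widely on the arrays, with the word in capitals, written 5′ to 3′ on the strand of the gene.
CXCL1, chr4:73869305-73869333, plus strand: tggaactccgGGAATTTCCctggcccggg
CXCL2, chr4:74099254-74099282, minus strand: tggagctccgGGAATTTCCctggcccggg
CXCL3, chr4:74038749-74038777, minus strand: tggagctccgGGAATTTCCctggcccggc
CXCL5, chr4:73998749-73998777, minus strand: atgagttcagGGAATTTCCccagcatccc
CXCL6, chr4:73836579-73836607, plus strand: ctgagttcagGGAATTTCCccagcatccc
CXCL8, chr4:73740468-73740496, plus strand: tgcaaatcgtGGAATTTCCtctgacataa
CCL20, chr2:227813753-227813781, plus strand: tgatcaatggGGAAAACCCcatgtggcaa

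The word began 77 or 78 bases ahead of the start in CXCL1, CXCL2 and CXCL3, and 89 to 91 bases ahead in CXCL5, CXCL6 and CXCL8. In CCL20 it lay on the opposite strand, 79 bases ahead. CXCL1, CXCL2 and CXCL3 held a copy of another form of the word 53 bases ahead of the start, which the promoters of CXCL5, CXCL6, CXCL8 and CCL20 did not hold.
CXCL1, chr4:73869330-73869358, plus strand: cgggggctccGGGCTTTCCagccccaacc
CXCL2, chr4:74099230-74099258, minus strand: ccgggactccGGGCTTTCCagccccaacc
CXCL3, chr4:74038724-74038752, minus strand: cggccgctccGGGCTTTCCagtctcaacc

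The flanks of CXCL1, CXCL2 and CXCL3 are nearly the same letters, and so are those of CXCL5 and CXCL6, since these genes are near copies of one another, and they do not count as independent instances. The NF-kappaB consensus was present in 6 of the 7 promoters, all but that of CXCL8, and in 5.05% of all promoters. The AP-1 word TGANTCA was present only in CXCL8 of the 7, in 5 of the 26 promoters of other ligands (19.2%) and in 6.6% of all promoters. A match is a description of letters and not of a bound site.

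Values below are log2 of the background-subtracted signal relative to the 75th percentile of the same array, so that a difference of 1 between groups is 2-fold. A probe that the scanner software did not mark as well above background on any array of a group has only a bound in that group. A fold against such a group is then written as "at least", from the dimmest signal marked well above background on each array. Any p-value of such a comparison rests on signals below background, and the probe entered the test only through the groups above it. No level is compared between probes. Probe positions are those of the array files, on hg19, and exon annotation of that build was not used here. For 12 of the 13 chemokine probes, of 9 genes, some group passed the mark on both of its arrays and the probe was tested, while the probe of CXCL6 was well above background on none of the 6 arrays.

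The ELR-positive chemokine CXCL1 was far higher in both variant populations. On its probe nearest the 3′ end (hg19 chr4:74736850-74736909), CXCL1 read -3.62 and -3.26 in Control cells, 0.54 and 0.56 in BT474-Var1 cells and 1.42 and 1.17 in BT474-Var4 cells. All 3 groups lay apart, and the difference from Control was 3.99 for BT474-Var1 (15.8-fold) and 4.73 for BT474-Var4 (26.6-fold), each with a standard error of 0.15. The other CXCL1 probe, nearer the 5′ end (chr4:74735646-74735705), read -2.78 and -3.11 in Control, -1.33 and -1.60 in BT474-Var1 and -0.90 and -0.76 in BT474-Var4 cells. The order of the groups was the same on both probes, while the differences on the second were 1.48 (2.78-fold) and 2.11 (4.32-fold).

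CXCL2, a close relative of CXCL1, was not well above background on either Control array at its 3′ probe (chr4:74962985-74963044), where it read -5.35 and -5.42. The same probe read -1.39 and -1.35 in BT474-Var1 and -1.53 and -1.65 in BT474-Var4 cells, at least 8.07-fold and at least 6.92-fold above Control. BT474-Var1 lay just above BT474-Var4 here, by 0.22. The second CXCL2 probe (chr4:74964342-74964401) lists RefSeq transcripts of both CXCL2 and CXCL3, so its signal cannot be given to either gene alone. It was well above background throughout and read -3.66 and -2.91 in Control, -1.89 and -1.81 in BT474-Var1 and -1.90 and -1.69 in BT474-Var4 cells. Both variants lay above Control, by 1.43 and 1.49, and overlapped each other. The 3′ probe, which lists CXCL2 alone, showed the larger difference, but the 2 probes do not measure the same transcripts.

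CXCL3 and CXCL8 each passed the background mark in a single variant. CXCL3, measured at chr4:74902702-74902761, read -3.06 and -3.00 in BT474-Var1 cells, against -6.41 and -6.69 in Control and -4.59 and -5.75 in BT474-Var4 cells, where it was not well above background on any array. Relative to Control it was raised in BT474-Var1 cells at least 2.56-fold, and relative to BT474-Var4 cells at least 1.83-fold. CXCL8, a potent neutrophil attractant measured at chr4:74609265-74609324, showed the reverse arrangement. It read -2.35 and -2.20 in BT474-Var4 cells, against -6.26 and -6.54 in Control and -4.67 and -4.45 in BT474-Var1 cells, which were all below the mark. The BT474-Var4 signal of CXCL8 exceeded that of Control at least 4.30-fold and that of BT474-Var1 cells at least 3.36-fold. No fold is given for CXCL3 between BT474-Var4 and Control or for CXCL8 between BT474-Var1 and Control, because both groups were below background.

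CXCL5 and CXCL6 did not follow the rest of the ELR-positive group. CXCL5, which acts through CXCR2 and was measured at chr4:74861898-74861957, was bright in every group, at 2.0 and 1.91 in Control, 1.47 and 1.44 in BT474-Var1 and 1.65 and 1.61 in BT474-Var4 cells. Control was the highest of the 3 and the groups did not overlap, with differences of -0.49 and -0.32, short of 2-fold. CXCL6, the nearest relative of CXCL5, read between -6.80 and -5.90 on the 6 arrays and was below background on all of them. The promoters of both hold the kappaB-like word, 90 bases ahead of the start in CXCL5 and 89 in CXCL6, beside 91 in CXCL8. In CXCL1, CXCL2 and CXCL3 it lay 77 or 78 bases ahead, with another copy at 53 that CXCL5 and CXCL6 did not hold. Any part of the word in the differences was not tested.

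Among the CC chemokines, CCL2 had the largest measured differences from Control of all 13 probes. Its probe (chr17:32584050-32584109), spotted 10 times on each array, read -3.19 and -3.14 in Control, 1.31 and 1.32 in BT474-Var1 and 2.15 and 2.15 in BT474-Var4 cells, well above background throughout. Relative to Control, CCL2 was higher by 4.48 ± 0.05 (standard error) in BT474-Var1 cells, or 22.3-fold, and by 5.32 ± 0.05 in BT474-Var4 cells, or 39.9-fold. The step between the variants was 1.79-fold. CCL5 (chr17:34199332-34199391), which recruits T cells and monocytes, read -1.93 and -2.05 in Control, -1.40 and -1.51 in BT474-Var1 and 0.34 and 0.25 in BT474-Var4 cells. The 3 groups lay apart, but the step in BT474-Var1 cells was small, 0.53 (1.45-fold), beside 2.28 (4.86-fold) in BT474-Var4 cells, and the variants differed by 1.75 (3.36-fold).

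CCL20 was not well above background on either Control array, at -6.38 and -6.67. It read -3.51 and -3.19 in BT474-Var1 cells, where both arrays passed the mark, and -3.35 and -3.51 in BT474-Var4 cells, where 1 of the 2 passed. The bounds were at least 2.04-fold and at least 1.93-fold, and the variants overlapped. CXCL16, the membrane-bound chemokine, was well above background everywhere and differed little. One probe read -0.57 and -0.39 in Control, -0.52 and -0.31 in BT474-Var1 and -0.10 and -0.23 in BT474-Var4 cells, and the other read -0.22 and -0.16, 0.02 and 0.02, and 0.59 and 0.47. The differences in BT474-Var4 cells were 0.32 and 0.72, and the BT474-Var1 and Control arrays overlapped on the first probe and lay 0.21 apart on the second.

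**Figure D1:**
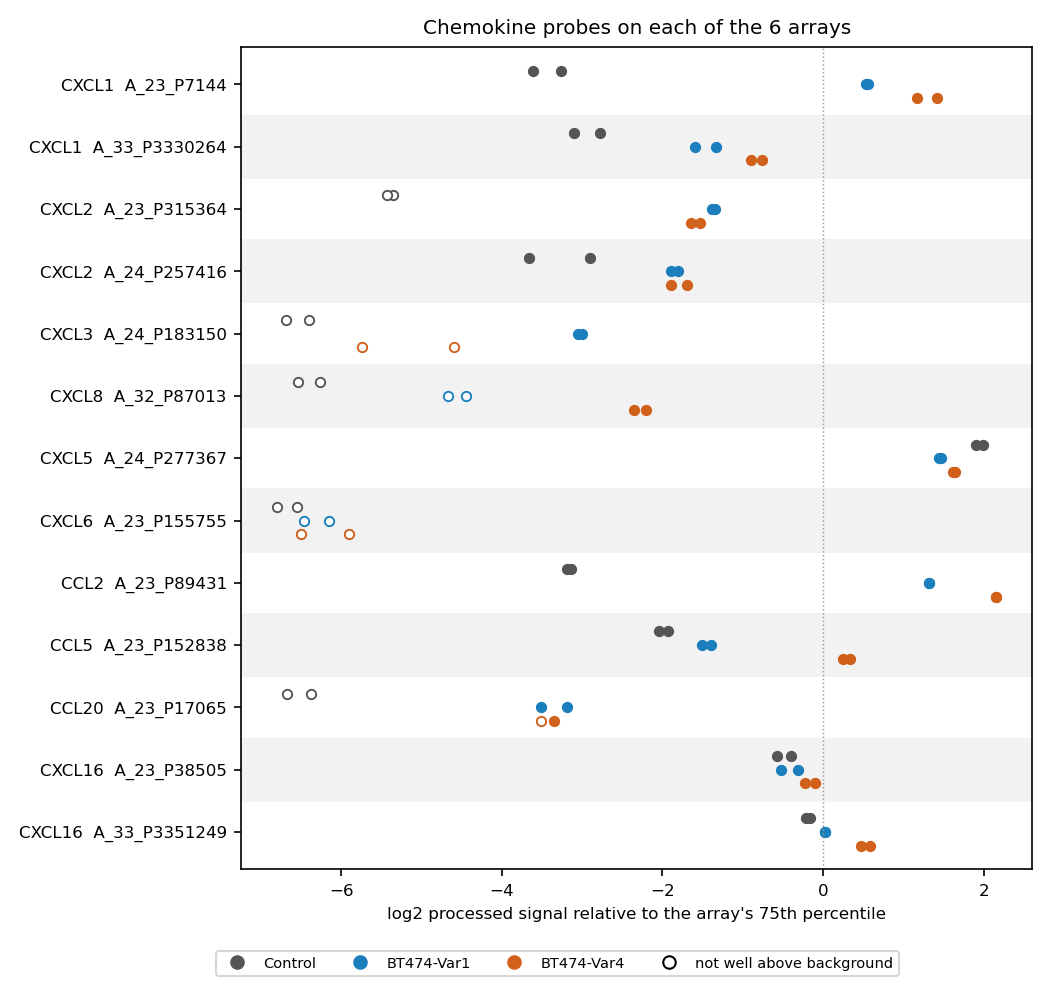
Log2 processed signal of each of the 13 chemokine probes, relative to the 75th percentile of the array, on the 2 Control, 2 BT474-Var1 and 2 BT474-Var4 arrays. Each point is 1 array and open points were not well above background. CCL2 lay between -3.19 and -3.14 in Control and at 1.31 to 2.15 in the variants, CXCL8 was filled only in BT474-Var4, CXCL3 only in BT474-Var1, and CXCL5 was highest in Control.

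The rule for calling any probe was a difference of at least 2-fold and a limma p-value that stayed under 0.05 after adjustment. By it, 8 of the 12 tested chemokine probes were higher and 0 lower in BT474-Var1 cells than in Control, beside 2.78% of all tested probes higher, 1.16% lower and 3.94% in either direction. The 8 were of CCL2, CCL20, CXCL1, CXCL2, CXCL3 and CXCL8, where CXCL8 was below background in both groups. In BT474-Var4 cells 8 were higher and 0 lower, beside 1.6% and 1.57% of all tested probes and 3.17% in either direction, and they were of CCL2, CCL5, CCL20, CXCL1, CXCL2 and CXCL8. When BT474-Var4 was set against BT474-Var1, 2 probes were higher (CCL5 and CXCL8) and 1 lower (CXCL3), beside 2.27%, 4.6% and, in either direction, 6.86% of all. The 2 arrays of each group did not overlap, with the variant higher, for 10 of the 12 probes in BT474-Var1 (31.2% of all tested probes) and 11 in BT474-Var4 (26.0%), and with the variant lower for 1 (40.5%) and 1 (42.6%). Between the variants, 8 were apart with BT474-Var4 higher (35.3%) and 2 with it lower (39.2%). Because the genes were picked from these contrasts, nothing is read from the counts, and the 2 comparisons with Control share the Control arrays.

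The sizes of the differences depended on how background was treated. With a normexp correction and an offset of 50 added to each signal, CCL2 differed by 2.20 and 2.96 from Control, CXCL1 at its 3′ probe by 1.63 and 2.19, CXCL2 at its 3′ probe by 0.71 and 0.58, CCL20 by 0.31 and 0.24 and CXCL8 in BT474-Var4 cells by 0.46, all still higher than Control. CXCL3 in BT474-Var1 cells then lay 0.38 above Control. The differences of BT474-Var4 from BT474-Var1 were -0.30 for CXCL3 and 0.27 for CXCL8, so the gap between the variants was small under this correction. The arrays' places on the slide also went with the groups. The file headers give each place as 2 numbers after the barcode and do not name them. The last number was 1 and 2 for Control and 3 and 4 for both variants, so it cannot be told apart from carrying a variant. The number before it was 2 for BT474-Var1 alone, so it cannot be told apart from Var1.

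Most chemokine neighbours of the CXC genes on chromosome 4 and of CCL2 were below background. The neighbours of CCL5, CCL20 and CXCL16 were not looked at. On chromosome 4, 13 chemokine genes with a probe lie in the order CXCL8, CXCL6, PF4V1, CXCL1, PF4, PPBP, CXCL5, CXCL3, CXCL2, CXCL9, CXCL10, CXCL11 and CXCL13, of which 7 passed the background mark on both arrays of some group. CXCL6, PF4V1, PPBP, CXCL9, CXCL11 and CXCL13 never did. CXCL10 was higher than Control in both variants, as described below. PF4, a platelet chemokine between CXCL1 and CXCL5, was measurable and read 0.18 and 0.41 above Control in BT474-Var1 and BT474-Var4 cells, with adjusted p of 0.667 and 0.360 in limma. On chromosome 17, CCL2 is followed by CCL7, CCL11, CCL8, CCL13 and CCL1. The first 4 of these neighbours were below background in every group, and CCL1 was well above background only in Control cells, at -3.65 and -3.41.

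**Figure D2:**
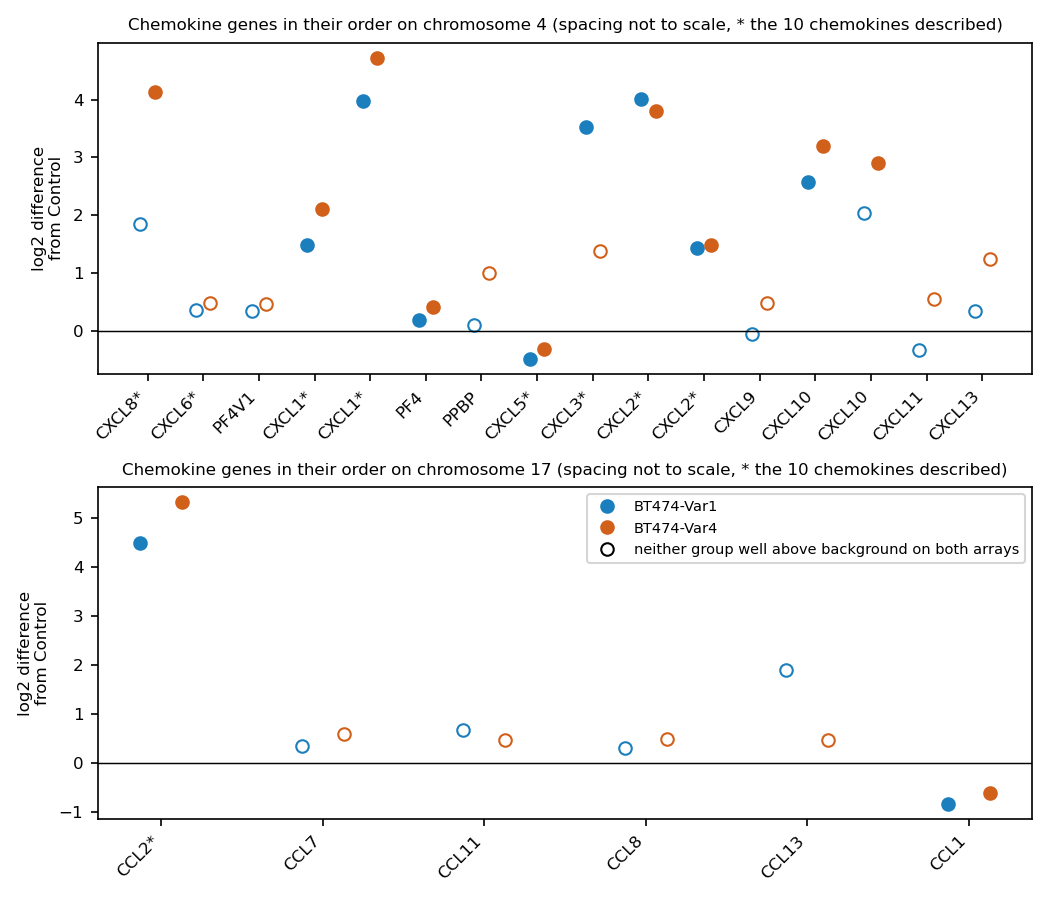
Log2 difference from Control of every probe of the 13 chemokine genes on chromosome 4 and of CCL2, CCL7, CCL11, CCL8, CCL13 and CCL1 on chromosome 17, in gene order, for BT474-Var1 and BT474-Var4 cells. Open points are probes for which neither group was well above background on both arrays. The adjacent CXCL3 and CXCL2 both lie high in BT474-Var1, CXCL1 and CXCL10 lie high between neighbours near 0 or below background, and CCL2, at 4.48 and 5.32, is the one gene with filled points above 0 among the 6 chromosome 17 genes shown.

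Of the other chemokine ligands, 34 genes had 46 probes, and 18 probes of 14 genes could be tested. In BT474-Var1 cells 2 were called higher and 1 lower than in Control, beside 2.78% and 1.16% of all tested probes. In BT474-Var4 cells 4 were higher and 4 lower, beside 1.6% and 1.57%. Between the variants 1 was higher and 2 lower in BT474-Var4 cells, beside 2.27% and 4.6%. The median difference of the 18 was -0.12 and -0.05 in the comparisons with Control, against -0.04 and -0.08 over all tested probes. CXCL10, an interferon-induced ligand of CXCR3 that lies in the chromosome 4 cluster, was below background in Control cells at -5.71 and -4.70 on its brighter probe. It read -2.87 and -2.40 in BT474-Var1 and -1.95 and -2.05 in BT474-Var4 cells, at least 3.35-fold and at least 5.21-fold higher (adjusted p = 0.0111 and 0.0103). The first call was lost without BT474-Var1 array B and the second without either BT474-Var4 array, with adjusted p up to 0.0548 and 0.0595. The second CXCL10 probe passed only in BT474-Var4 cells, at least 3.44-fold (adjusted p = 0.0395), and passed in none of the 6 repeats with 1 array left out (adjusted p up to 0.137).

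CXCL14, a chemokine of normal epithelia, went opposite ways in the variants. It read 4.38 and 4.32 in Control, 2.83 and 2.80 in BT474-Var1 and 6.14 and 6.12 in BT474-Var4 cells. It fell by 1.54 in BT474-Var1 (adjusted p = 0.0023) and rose by 1.77 in BT474-Var4 cells (adjusted p = 0.00202), and the variants themselves differed by 3.31 (adjusted p = 5.3e-04). CXCL17, a mucosal chemokine, read 2.48 and 2.51 in Control, 2.03 and 2.09 in BT474-Var1 and 0.48 and 0.40 in BT474-Var4 cells. It fell by 2.06 in BT474-Var4 cells (adjusted p = 0.00202) and lay 1.62 below BT474-Var1 there (adjusted p = 0.0012). The calls of CXCL14 and CXCL17 held without each of the 6 arrays.

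CXCL12, the ligand of CXCR4 and ACKR3, fell in BT474-Var4 cells on 2 of its 4 tested probes, by 1.12 and 1.08 (adjusted p = 0.00654 and 0.00388), while the other two read -0.05 and -0.59 relative to Control and were not called. The first of these calls was lost without BT474-Var4 array A or either Control array, with an adjusted p up to 0.0584. CX3CL1 rose by 1.32 in BT474-Var4 cells (adjusted p = 0.0224), which was lost in 4 of the 6 repeats with 1 array left out, namely without BT474-Var1 array A, either BT474-Var4 array or Control array A, and with the replicate letter as a block. CCL25 fell by 1.08 in BT474-Var4 cells (adjusted p = 0.0282), a call lost in 5 of the 6, all but that without BT474-Var4 array A. CCL17, a ligand of CCR4, rose by 1.01 in BT474-Var1 cells (adjusted p = 0.00384), just past 2-fold, and fell short without Control array B. CCL19 was lower in BT474-Var4 cells, at least 1.85-fold below the BT474-Var1 arrays (adjusted p = 0.00667), a call lost with quantile normalization. With normexp, 9 of the 14 calls of these other ligands were lost, and the 5 kept were those of CXCL14 and CXCL17. Calls over all tested probes fell with normexp from 1256 to 170 and from 1010 to 152 against Control, and from 2187 to 363 between the variants.

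The receptors of the 10 chemokines were mostly dim, and CCR2 was the one called against Control. CXCR1, CXCR2, CXCR6 and CCR3 were below background on all 6 arrays, and CCR1 was above it on 1 Control and 1 BT474-Var4 array only. CCR2, the receptor of CCL2, was well above background on 1 of its 2 probes and only in Control cells, at -2.56 and -2.12, and read -4.05 and -3.96 in BT474-Var1 and -4.25 and -3.65 in BT474-Var4 cells. CCR2 fell at least 2.99-fold and at least 2.96-fold (adjusted p = 0.012 and 0.0185), and the adjusted p reached 0.0659 and 0.0873 when 1 array was left out, the calls being lost without either Control array, without either BT474-Var1 array in the first and without BT474-Var1 array A or BT474-Var4 array A in the second. CCR6, the receptor of CCL20, read 0.03 and 0.26, 0.57 and 0.78, and -0.05 and -0.02, with differences of 0.53 and -0.18 (adjusted p = 0.0273 and 0.304), both short of 2-fold.

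Receptors of other ligands, 3 in number, differed between the variants. CXCR4 read 2.04 and 1.99 in Control, 3.27 and 3.29 in BT474-Var1 and 2.04 and 2.04 in BT474-Var4 cells, rising by 1.27 in BT474-Var1 (adjusted p = 0.00233), while BT474-Var4 lay 1.24 below BT474-Var1 (adjusted p = 0.0012). CX3CR1, the receptor of CX3CL1, rose by 2.34 in BT474-Var1 cells (adjusted p = 0.0018). The BT474-Var4 difference was 0.36, short of 2-fold, and the variants differed by -1.99 (adjusted p = 0.00118). Both calls of CX3CR1 were lost with normexp, while those of CXCR4 were kept. CCR10 lay 1.00 below BT474-Var1 in BT474-Var4 cells (adjusted p = 0.0189), but not when either BT474-Var1 array or BT474-Var4 array B was dropped. ACKR3, the scavenging receptor of CXCL12, was the brighter in BT474-Var4 cells at 4.61 and 4.62, against 3.88 and 3.92 in Control and 3.83 and 3.90 in BT474-Var1, a difference of 0.72 from Control (adjusted p = 0.005) that was short of 2-fold. In all, 11 receptor probes of 11 genes were tested. In BT474-Var1 cells 2 were called higher and 1 lower, beside 2.78% and 1.16% of all tested probes. In BT474-Var4 cells 0 were higher and 1 lower, beside 1.6% and 1.57%, and between the variants 0 higher and 3 lower, beside 2.27% and 4.6%. At an unadjusted p under 0.05, with no limit on the fold, 6, 4 and 6 of the 11 passed, beside 46.4%, 40.1% and 51.7% of all tested probes. The proteases that cut CXCL16 differed little, with ADAM17 reading 1.22 to 1.42 on the 6 arrays and 0 of the 3 ADAM10 and ADAM17 probes called in limma. At an unadjusted p under 0.05, 0, 0 and 1 of these 3 probes passed in the 3 comparisons.

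**Figure D3:**
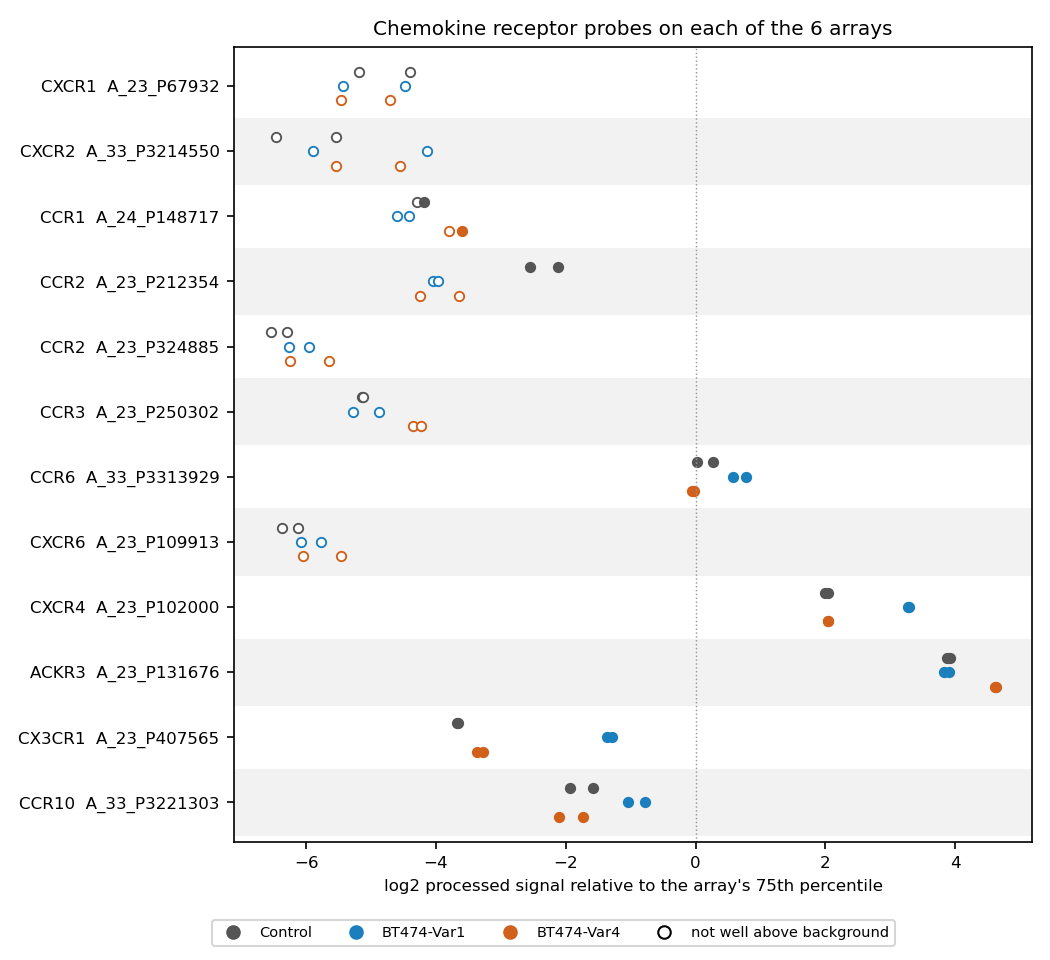
Log2 processed signal, relative to the 75th percentile of the array, of the probes of CXCR1, CXCR2, CCR1, CCR2, CCR3, CCR6, CXCR6, CXCR4, ACKR3, CX3CR1 and CCR10 on each of the 6 arrays. Open points were not well above background. CXCR1, CXCR2, CXCR6 and CCR3 were open on every array, CCR2 was filled only in Control, and CXCR4 was raised only in BT474-Var1, at 3.27 and 3.29.

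A list of 46 genes of the cytokines, receptors and transcription factors known to act on chemokine genes gave 60 tested probes of 42 genes. In BT474-Var1 cells 12 probes of 10 genes were called higher and 0 lower than in Control, beside 2.78% and 1.16% of all tested probes. In BT474-Var4 cells 8 probes of 8 genes were higher and 0 lower, beside 1.6% and 1.57%. The list's median difference was 0.10 and 0.06, against -0.04 and -0.08 over all tested probes. Between the variants 2 probes were higher in BT474-Var4 cells and 5, of IL6ST and TLR3, lower, beside 2.27% and 4.6% of all tested probes. At an unadjusted p under 0.05 with no limit on the fold, 31, 34 and 37 of the 60 passed in the 3 comparisons. Of all tested probes, 46.4%, 40.1% and 51.7% passed.

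TNF, a cytokine that activates NF-kappaB, was below background in Control cells at -5.03 and -4.37, and read -1.08 and -1.06 in BT474-Var1 and -0.32 and -0.47 in BT474-Var4 cells. TNF rose at least 9.49-fold and at least 15.1-fold (adjusted p = 0.0034 and 0.00333). Each p-value rests on Control signals below background, and the first call was lost with normexp. TNFAIP3, the feedback inhibitor A20, rose by 3.17 and 3.27 (adjusted p = 0.00154 and 0.00202), from -3.46 and -3.60 in Control to between -0.39 and -0.22 in the variants. RELB, a subunit of noncanonical NF-kappaB, rose by 1.69 and 1.64 (adjusted p = 0.0029 and 0.00311), and its partner NFKB2 by 1.30 in BT474-Var1 cells (adjusted p = 0.00279), with 0.93, short of 2-fold, in BT474-Var4 cells. NFKBIA, which encodes the inhibitor IkappaB alpha, was 0.67 and 0.93 higher, also short of 2-fold. RELA, the main canonical subunit, read within 0.07 of Control on both probes, with adjusted p of 0.371 or above. NFKB1 was lower in BT474-Var1 cells by 0.50 and in BT474-Var4 cells by 0.21, short of 2-fold.

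FOS and ATF3, transcription factors of the AP-1 type, rose in both variants. FOS rose by 1.55 and 1.20 (adjusted p = 0.0029 and 0.00388). ATF3 passed on 3 of its 4 probes in BT474-Var1 cells, with differences of 1.1 to 1.39, and on 1 in BT474-Var4 cells, with 1.01 (adjusted p = 0.00414), which did not pass when BT474-Var4 array B or Control array A was dropped. JUN rose by 1.03 in BT474-Var1 cells (adjusted p = 0.00457) and fell short of 2-fold without Control array B. IRF1 rose by 1.14 and 1.03 (adjusted p = 0.0069 and 0.0125). The first of these calls was lost without BT474-Var1 array B or Control array A, and the second without either BT474-Var4 array or either Control array. IL17C, an epithelial cytokine, rose by 1.58 and 1.99 (adjusted p = 0.00294 and 0.00262), both lost with normexp.

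IL6 and TLR3 divided the variants. IL6 was below background in Control cells and above it on 1 of the BT474-Var1 arrays on 1 of its 2 probes. It read -1.30 and -1.35 in BT474-Var4 cells, at least 7.21-fold higher than in Control (adjusted p = 0.013 in limma). This call was lost when either Control array or either BT474-Var4 array was left out, and with no filter on dim probes. BT474-Var4 cells lay 2.73 above BT474-Var1 cells for IL6 (adjusted p = 0.00777). TLR3, a sensor of double-stranded RNA, rose by 1.52 in BT474-Var1 cells (adjusted p = 0.00965), though not with either BT474-Var1 array dropped, and read 0.05 above Control in BT474-Var4 cells, with a difference of -1.47 between the variants (adjusted p = 0.00854). IL6ST, the signal-transducing subunit shared by IL6-type receptors, was lower in BT474-Var4 cells by 1.01 to 1.30, relative to BT474-Var1, on 4 of its 7 probes, and each of these 4 calls was lost without at least 1 array, BT474-Var1 array A or a BT474-Var4 array. TLR2 was called higher in BT474-Var4 cells with BT474-Var1 as the reference, at least 1.54-fold (adjusted p = 0.0475), a call that held in 1 of the 6 repeats with 1 array left out. IL1A, IL1B and TLR4 were below background on all 6 arrays. With normexp, 20 of the 27 calls of the list over the 3 comparisons were lost. The 7 kept were both calls of TNFAIP3 and of RELB, TNF in BT474-Var4, and FOS and 1 probe of ATF3 in BT474-Var1 cells. Calls over all tested probes also fell with normexp, from 1256, 1010 and 2187 to 170, 152 and 363 in the 3 comparisons.

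**Figure D4:**
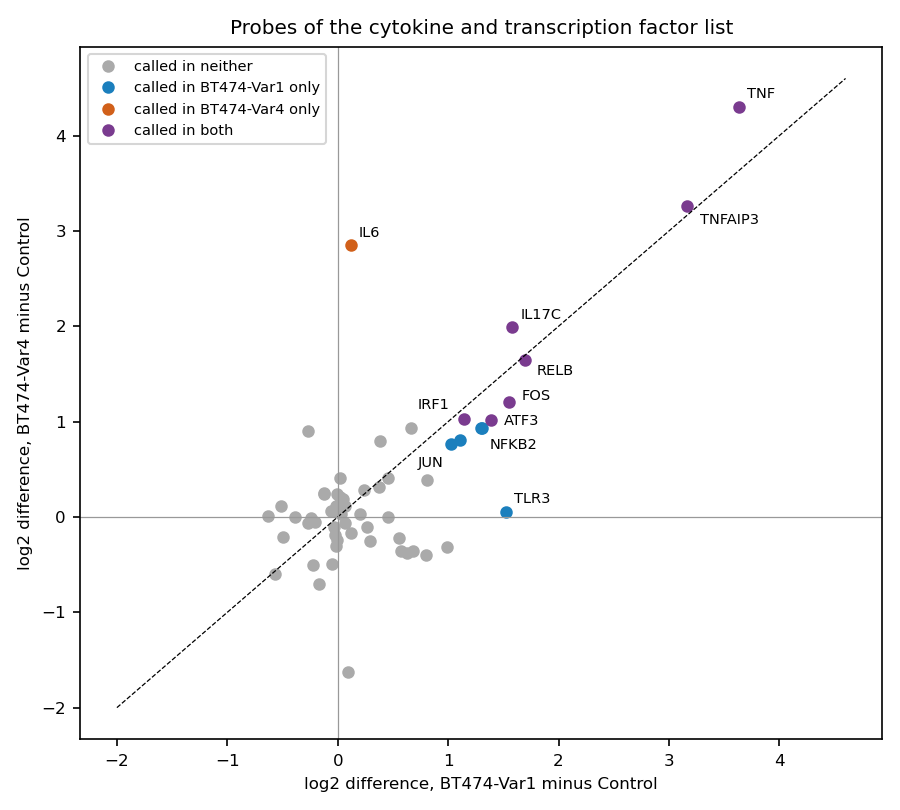
Log2 difference of BT474-Var1 from Control (horizontal axis) and of BT474-Var4 from Control (vertical axis) for the 60 tested probes of the cytokine and transcription factor list. Each point is a probe, colour shows in which comparison it was called, and the dashed line marks equal differences, both of which use the same Control arrays. TNF and TNFAIP3 lie high near the line, IL6 stands off it toward BT474-Var4, and TLR3 toward BT474-Var1. The positions of TNF and IL6 are measured values, not bounds, and rest on Control signals below background.

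The pattern of the ELR-positive group was also compared with other genes that have a RefSeq symbol. The profile was the mean of 5 centred probes, 1 each of CXCL1, CXCL2, CXCL3, CXCL5 and CXCL8, and 3901 probes with group means at least 1 apart were ranked by their Pearson r with it over the 6 arrays. The most alike genes were CYP4Z1 (r = 0.999), a cytochrome P450 of mammary tissue, TNF (0.995), the antisense RNA SEMA3B-AS1 (0.995), the transcription factor CREB5 (0.994) and TNFAIP3 (0.993). The correlations are descriptions, since the 6 arrays are 3 pairs. For CXCL2 the profile used the probe that also lists CXCL3. The probes of CXCL3 and CXCL8 were below background on both Control arrays. CXCL3 was also below it in BT474-Var4 cells and CXCL8 in BT474-Var1 cells, so the profile rests in part on such signals. CXCL5 ran against the other 4 genes of the profile. CYP4Z1 read 1.02 and 1.11 above Control.

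The transfected RNA checked the labels. Of 4 NR2F1-AS1 probes, 2 were high in BT474-Var1, at -0.42 and -0.51 on one and -0.19 and -0.22 on the other, with BT474-Var4 below background. Another probe was high in BT474-Var4, at 1.67 and 1.5, with BT474-Var1 below background. The last read 3.01 and 3.02 in BT474-Var4 and -1.69 and -1.52 in BT474-Var1 cells, above background in both. Control array A was below background on all 4 probes and Control array B on 1. A share of 47.6% to 57.5% of the probes was well above background on each array, and the median SD between the 2 arrays of a group was 0.06 to 0.07 over the tested probes. All 9 markers of luminal epithelium, ERBB2 and ESR1 among them, were well above background on every array. CD68 and LYZ were also planned as leukocyte markers but are not in the counts or sums that follow. Of 8 leukocyte markers, 4 to 6 were well above background per array, with CSF1R and MS4A1 on none, and their summed linear signal, in multiples of the 75th percentile, was 1.79 to 1.87 in Control, 1.99 to 2.0 in BT474-Var1 and 1.72 to 1.86 in BT474-Var4 cells. Of 6 endothelial markers 2 to 3 were, with CLDN5, KDR and TEK on none, and their sums were 2.65 to 2.83, 1.82 to 1.94 and 2.49 to 2.63. Of 8 fibroblast markers, 2 were well above background in Control and BT474-Var1 and 3 in BT474-Var4 cells, with sums of 3.16 to 3.19, 3.70 to 3.83 and 5.56 to 5.73, and COL1A2, COL3A1, LUM, PDGFRA and THY1 on none. The third was DCN, at -1.35 and -1.75. In BT474-Var4 cells COL1A1 read 1.03 above and PDGFRB 0.32 below Control, and in BT474-Var1 cells they read 0.34 above and 0.02 below. The part of this in the chemokine values was not tested. The RNA is that of a whole culture, in which more cells with a transcript and more transcript per cell cannot be told apart.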

How the data were processed

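RNA of Control, BT474-Var1 and BT474-Var4 cells, 2 arrays each, was measured with the Cy3 dye on 1 slide of one-color Agilent arrays. The authors used Feature Extraction 11.5.1.1, per the labels, to quantify the spots, and deposited the processed signal of each array as linear intensity, after background subtraction and detrending. They also deposited a table of log2 values shifted to the 75th percentile in GeneSpring, which matched the same arrays within a median of 0.00716 and served as an alternative. Here, log2 of the processed intensity less the 75th percentile of the non-control probes was used. Outlier spots were dropped and the spots of a probe averaged. A probe entered the test when both arrays of some group marked it well above background, 31858 probes in all, and the test was that of limma 3.58.1 in R 4.3.3, with 1 mean per group over the 6 arrays (3 residual degrees of freedom), and Benjamini-Hochberg adjustment over all of them. Calls needed an adjusted p below 0.05 and a difference of at least 2-fold.

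The members and lists were chosen with earlier results of these data known. Named genes were the 10 chemokines with all probes, their receptors and shedding proteases, every other listed gene with a called probe, up to 8 per list and comparison, and the 5 genes most alike. A listed receptor is not reported here by name. PF4, NFKB1, NFKBIA, RELA and genes below background were added after their values were seen. The pipeline was tested on simulated data. The replicate letters were not used to pair the arrays in the main test. The deviations of same-lettered arrays correlated at -0.02 to 0.05, which cannot show whether those arrays were cultured or processed together. Alternatives were normexp, quantile normalization, other filters, the deposited table, a replicate block, eBayes with trend, only the 4 compared arrays, the one-way analysis of variance of the methods, an unadjusted p and each array left out.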

Additional observations from a re-analysis of the deposited data

How the results depend on the processing

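The differences of the chemokine probes from Control and between the variants kept their sign for 34 to 36 of 36 when 1 array was left out, and for 35 of 36 under quantile normalization and under normexp. None of the called ones reversed. With normexp and an offset of 50, which lifts dim signals, 30 of the 36 moved by more than the spread between arrays, and with quantile normalization 15 did. Among the 30 tested chemokine ligand probes, calls were 11 for BT474-Var1 and 16 for BT474-Var4 against Control and 6 between the variants. Of these, 8, 8 and 3 were of the 10 chemokines picked from these contrasts, so nothing is read from the pooled counts. With normexp, ligand calls were 3, 5 and 2. Calls over all tested probes fell under it from 1256, 1010 and 2187 to 170, 152 and 363. When only probes above background on all 6 arrays were tested, ligand calls were 6, 10 and 3, since fewer probes (20) were left. Receptor calls, 3, 1 and 3, were 1, 0 and 1 with normexp, and the single one of BT474-Var4 against Control, CCR2, was also lost (0) with no filter and in the methods' analysis of variance and was not tested under the stricter filter (0). In these settings 3 to 5 receptor probes passed an unadjusted p under 0.05. Without these changes 4 of 11 did, beside 40.1% of all tested probes. Upstream list calls, 12, 8 and 7, were 4, 3 and 0 with normexp. There 38 and 41 of the 60 probes passed an unadjusted limma p under 0.05 for BT474-Var4 against Control and between the variants. Without normexp 34 and 37 passed, beside 40.1% and 51.7% of all tested probes. The share of all probes under the alternatives is not given, so nothing is read from these unadjusted counts. With 1 array left out, ligand calls were 10 to 11, 12 to 13 and 6 to 8, receptor calls 2 to 4, 0 to 1 and 2 to 4, and upstream calls 11 to 12, 5 to 8 and 3 to 7, the lowest without BT474-Var4 array B or Control array A in the second and without BT474-Var1 array A in the third. With the replicate letter as a replicate block, the calls were 12, 15 and 6 for ligands, 3, 1 and 3 for receptors and 12, 8 and 7 for the upstream list. Among all tested probes, 3.94%, 3.17% and 6.86% were called in the 3 comparisons. Over all tested probes, the share of calls that were higher was 70.5%, 50.4% and 33.1%, and 56.6%, 61.7% and 50.7% with quantile normalization. Signal over background sets what can be measured: CXCL6 had no measurable value, and CXCL2 at its 3′ probe, CXCL3, CXCL8 and CCL20 have only bounds against Control. The number of arrays limits the precision.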
